A study of Mus musculus with 4 samples.

Results

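Exosomes released by explants of brown adipose tissue (BAT-Exos) were compared between high-fat diet (HFD) and low-fat diet (LFD), each given to wild-type mice of the C57BL/6 (B6) strain. The labels give 6 weeks for the mice and 4 months for the diets. Small RNA was sequenced in 4 libraries, which are HFD BAT-Exos, LFD BAT-Exos, HFD exosomes of visceral white adipose tissue (vWAT-Exos) and LFD vWAT-Exos, and the first pair is described here. Each group has 1 library, so no value has a replicate error and no difference is a tested effect of diet. The sources do not say whether a library pools several mice, and an explant holds all cells of the dissected piece. Described here are mature miRNAs under a mouse name, with repeats of a sequence counted once, whose norm value (the normalized read count of the deposited table) was 10 or more in the HFD or the LFD library. There were 456 of them, among 697 mouse-named sequences and 1482 listed sequences. Of the other 241, 114 were listed at 0 in both BAT-Exos libraries. At the edge, miR-34b-3p (10.6 in the HFD library and 6.60 in the LFD library) lay just inside and miR-487b-3p (9.88 and 9.90) just outside.

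A miRNA is a short RNA cut from a hairpin precursor. One arm of the hairpin, the guide strand, usually enters a silencing complex and pairs with messenger RNAs through its seed, bases 2 to 8, while the passenger strand of the other arm is mostly degraded. Brown adipose tissue burns lipid for heat through UCP1, its cells share an ancestry with skeletal muscle, and it is rich in mitochondria, vessels and sympathetic nerves. Cells also release miRNAs inside exosomes, small vesicles that other cells can take up.

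The sequences of the miRNAs on which the comparison turns are given first, so that shared seeds can be seen. They were taken from RefSeq (GRCm38.p6) and run from 5′ to 3′, with the seed in capitals. The miR-200 family of epithelial cells has a pair of seeds that differ in 1 letter.
miR-200a-3p: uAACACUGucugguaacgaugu
miR-141-3p: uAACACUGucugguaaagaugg
miR-200b-3p: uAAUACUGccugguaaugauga
miR-200c-3p: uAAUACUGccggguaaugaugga
miR-429-3p: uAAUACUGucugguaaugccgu
miR-200a-3p (chr4:156054911-156054932), miR-200b-3p (chr4:156055685-156055706) and miR-429-3p (chr4:156053916-156053937) lie on the minus strand within Ttll10, and miR-200c-3p (chr6:124718324-124718346) and miR-141-3p (chr6:124717917-124717938) lie on the minus strand in an intron of the non-coding gene Gm15884.

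The muscle miRNAs below come from 3 chromosomes, and miR-206-3p and miR-133b-3p are neighbours. miR-499-5p and miR-208b-3p share most of their seed.
miR-206-3p: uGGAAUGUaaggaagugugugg
miR-133b-3p: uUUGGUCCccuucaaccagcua
miR-499-5p: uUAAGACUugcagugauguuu
miR-208b-3p: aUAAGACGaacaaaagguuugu
miR-206-3p (chr1:20679055-20679076) and miR-133b-3p (chr1:20682834-20682855) lie on the plus strand in exons of the long non-coding RNA gene Gm28653. miR-499-5p (chr2:155622893-155622913, plus strand) lies in an intron of the myosin gene Myh7b, and miR-208b-3p (chr14:54975710-54975731, minus strand) in an intron of Myh7, the slow myosin heavy chain.

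The next sequences are arms of miR-129 and the miR-144 and miR-451 of red blood cells. Between them stand the listed let-7 guide strands past 2-fold, with that of the smallest difference. The let-7 strands share the seed GAGGUAG.
miR-129-5p: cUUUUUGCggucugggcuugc
miR-129-2-3p: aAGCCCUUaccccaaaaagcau
let-7e-5p: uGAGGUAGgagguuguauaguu
let-7g-5p: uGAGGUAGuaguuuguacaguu
let-7b-5p: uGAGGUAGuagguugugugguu
miR-144-3p: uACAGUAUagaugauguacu
miR-451a: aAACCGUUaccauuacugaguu
miR-129-5p is the 5′ arm of both Mir129-2 (chr2:94241419-94241439, minus strand, in an intron of Mir670hg) and Mir129-1 (chr6:29022624-29022644, plus strand, in an exon of Gm3294), whereas miR-129-2-3p (chr2:94241376-94241397) comes from the first alone. miR-144-3p (chr11:78073047-78073066) and miR-451a (chr11:78073186-78073207) lie beside each other on the plus strand outside annotated host genes. let-7e-5p (chr17:17830366-17830387) is in an intron of Spaca6, let-7g-5p (chr9:106178846-106178867) in an intron of Wdr82 and let-7b-5p (chr15:85707325-85707346) in an exon of Lncppara, all on the plus strand.

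A neighbouring pair of the imprinted cluster of chromosome 12 and a pair of repeat-like entries complete the set.
miR-379-5p: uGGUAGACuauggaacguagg
miR-411-5p: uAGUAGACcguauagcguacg
miR-3470b: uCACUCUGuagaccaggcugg
mir-1954-p3: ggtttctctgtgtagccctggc
miR-379-5p (chr12:109709065-109709085) and miR-411-5p (chr12:109710190-109710210) lie on the plus strand. miR-3470b (chr16:44013885-44013905, plus strand) lies in an intron of Gramd1c, which is read from the opposite strand, and its letters are those of the B1 repeat of the mouse genome. The entry mir-1954-p3 is printed as deposited, in DNA letters and without a seed.

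The BAT-Exos libraries were the deeper ones of the series, and their norm values summed to 5832550 in the HFD library and 5650701 in the LFD library. Judged by the read numbers that predicted entries carry in their names, the sums correspond to about 8265829 and 6846014 reads, and 1 read is worth a norm value of 0.706 in the HFD library and 0.825 in the LFD library. A norm value of 10 is thus about 14.2 reads in the HFD library and 12.1 reads in the LFD library. Intervals below are 95% Clopper-Pearson intervals of a fold from these approximate reads, and they cover counting error only. Mouse names took up 96.5% of the HFD total and 96.3% of the LFD total. The brown fat label was met by the miRNAs of both libraries. miR-378a-3p, encoded within Ppargc1b, had 2080467 in HFD and 2108530 in LFD BAT-Exos, against 113025 in HFD and 71290 in LFD vWAT-Exos. The norm values of vWAT-Exos summed to less, with 2839846 on HFD and 2585590 on LFD. Values set against vWAT-Exos, here and below, are not scaled to a common total.

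Nearly all of the most abundant miRNAs had norm values within 2-fold on either diet, and the larger differences were found at middle and low levels. The 10 most abundant made up 67.1% of each library. After miR-378a-3p came miR-22-3p, with 378447 in the HFD library and 286228 in the LFD library, and miR-29a-3p, with 364404 and 282796. Among the 10 most abundant of the HFD library, miR-101c had the ratio farthest below 0, with 104234 in the HFD library and 165668 in the LFD library (log2 ratio -0.67). Log2 ratios here are HFD over LFD, after adding 1 to each norm value. Of 53 miRNAs that reached 10000 in 1 of the libraries, 51 lay within 2-fold, and the exceptions were miR-133a-3p, which was higher on HFD, and let-7g-5p, which was lower. Across 398 miRNAs at 10 or more in both libraries, Spearman's rho of the norm values was 0.949, a description over miRNAs that share their library.

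A miRNA was counted as higher or lower when its norm values differed by at least 2-fold and reached 100 in at least 1 library, as the study's methods set the fold and the norm value. Of 283 miRNAs at that level, 21 were higher in HFD BAT-Exos (7.42%) and 35 were lower (12.4%), while 227 lay within 2-fold. At the edge of this count, miR-450b-3p (126 in the HFD library and 62.3 in the LFD library) was just inside and miR-155-5p (127 and 249) just outside. For 17 of the 21 and 30 of the 35, the counting interval lay wholly beyond 2-fold. Over all 456 miRNAs, low ones included, 53 were at least 2-fold higher (11.6%) and 83 at least 2-fold lower (18.2%). The median log2 ratio of all 456 was 0.07, and the middle 50% of the 283 lay between -0.48 and 0.46. Neither length nor GC content went with the ratio, with a Spearman's rho of -0.09 for length and -0.07 for GC content over the 283.

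**Figure D1:**
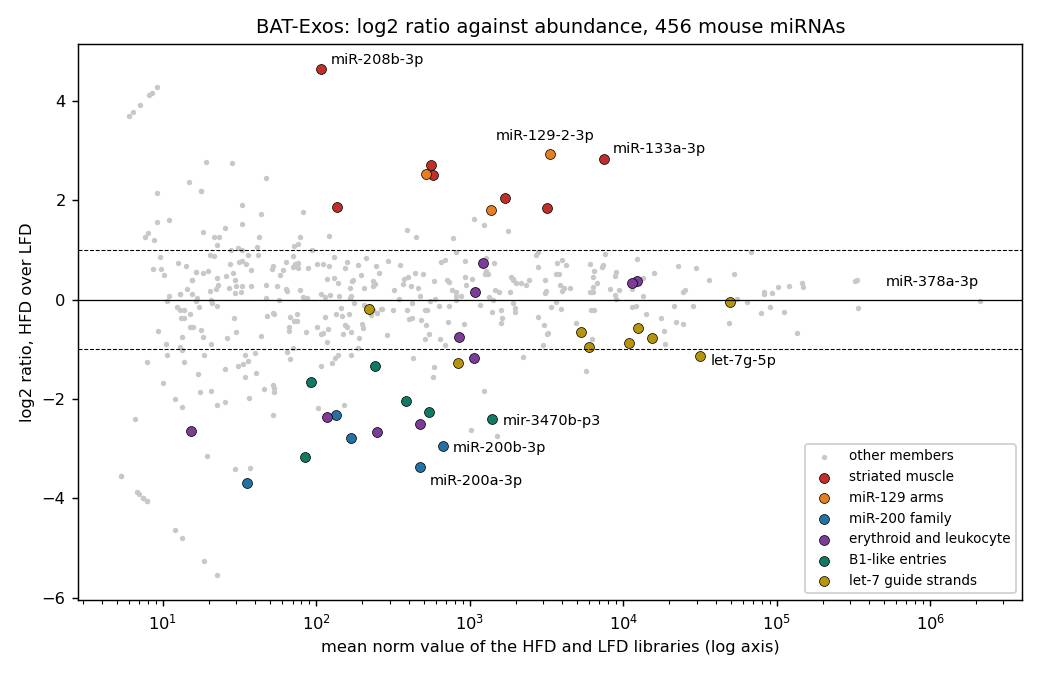
Each point is 1 of the 456 mouse miRNAs, with the mean norm value of the HFD and LFD BAT-Exos libraries on a log x axis and the log2 ratio of HFD over LFD on the y axis. Dashed lines mark 2-fold. miR-378a-3p lies at the far right near 0, and the muscle miRNAs and miR-129 arms stand above the upper line, while the miR-200 family and the B1-like entries stand below the lower one.

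Of the 27 lists, that of striated muscle had the highest median on HFD. All 7 described members of the list were at least 2-fold higher, with a median log2 ratio of 2.52, beside 0.07 over all miRNAs. All 7 reached a level of 100, at which 7.42% of all miRNAs were 2-fold higher and 12.4% were 2-fold lower. These miRNAs, called myomiRs, are made in skeletal muscle and heart. The list has 9 names, of which miR-208a-3p lay under a norm value of 10 and miR-1b-5p was not matched. The sum of the 7 was 23146 in HFD BAT-Exos and 4251 in LFD BAT-Exos (0.397% and 0.0752% of the totals), against 1408 in HFD and 1572 in LFD vWAT-Exos.

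The most abundant myomiR, miR-133a-3p, had a norm value of 13086 in the HFD library and 1829 in the LFD library, a 7.15-fold difference (interval 6.85 to 7.48). It is also known to restrain brown fat formation by targeting Prdm16. Its passenger strand miR-133a-5p had 213 and 58.2, in the same order of libraries. miR-1a-3p, which is made from shared transcripts with miR-133a, had 4968 in the HFD library and 1383 in the LFD library (3.59-fold). All of these were higher in the HFD library.

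miR-206-3p, a miRNA of skeletal muscle that is nearly absent from heart, had 2729 in the HFD library and 657 in the LFD library (4.15-fold, interval 3.85 to 4.49). Its neighbour miR-133b-3p had 975 and 170 (5.74-fold). Both members of this chromosome 1 pair were thus several-fold higher. The myosin-encoded miR-499-5p had 966 in the HFD library and 147 in the LFD library (6.57-fold), and miR-208b-3p had 208 and 7.43. The last of these is the largest ratio among the 283 (28.0-fold, interval 14.6 to 61.9), and it rests on about 9 reads in the LFD library. In a bulk sample, more muscle cells in the tissue piece and more of these miRNAs per cell cannot be told apart, and the part of either in this result was not tested.

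All arms of miR-129 were also higher on HFD, a set that was put together after the values were seen. miR-129 is best known from neurons, and its 5p strand has also been linked to brown fat function in mice. miR-129-2-3p had 5851 in the HFD library and 769 in the LFD library (7.61-fold, interval 7.11 to 8.15). miR-129-1-3p, from the other hairpin, had 892 and 153 (5.82-fold), and miR-129-5p, which both hairpins give, had 2130 and 607 (3.51-fold). In vWAT-Exos the 3 arms summed to 171 on HFD and 186 on LFD. Of the 7 miRNAs on the neuronal list, 3 reached a level of 100, and of these 3 only miR-129-5p was 2-fold apart. Over all miRNAs at that level, 7.42% were 2-fold higher and 12.4% were 2-fold lower. miR-124-3p, a defining marker of neurons, had 15.5 in the HFD library and 2.75 in the LFD library, miR-9-5p had 40.7 and 93.8, and miR-128-3p had 3530 and 1882. The list's median was 0.20.

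**Figure D2:**
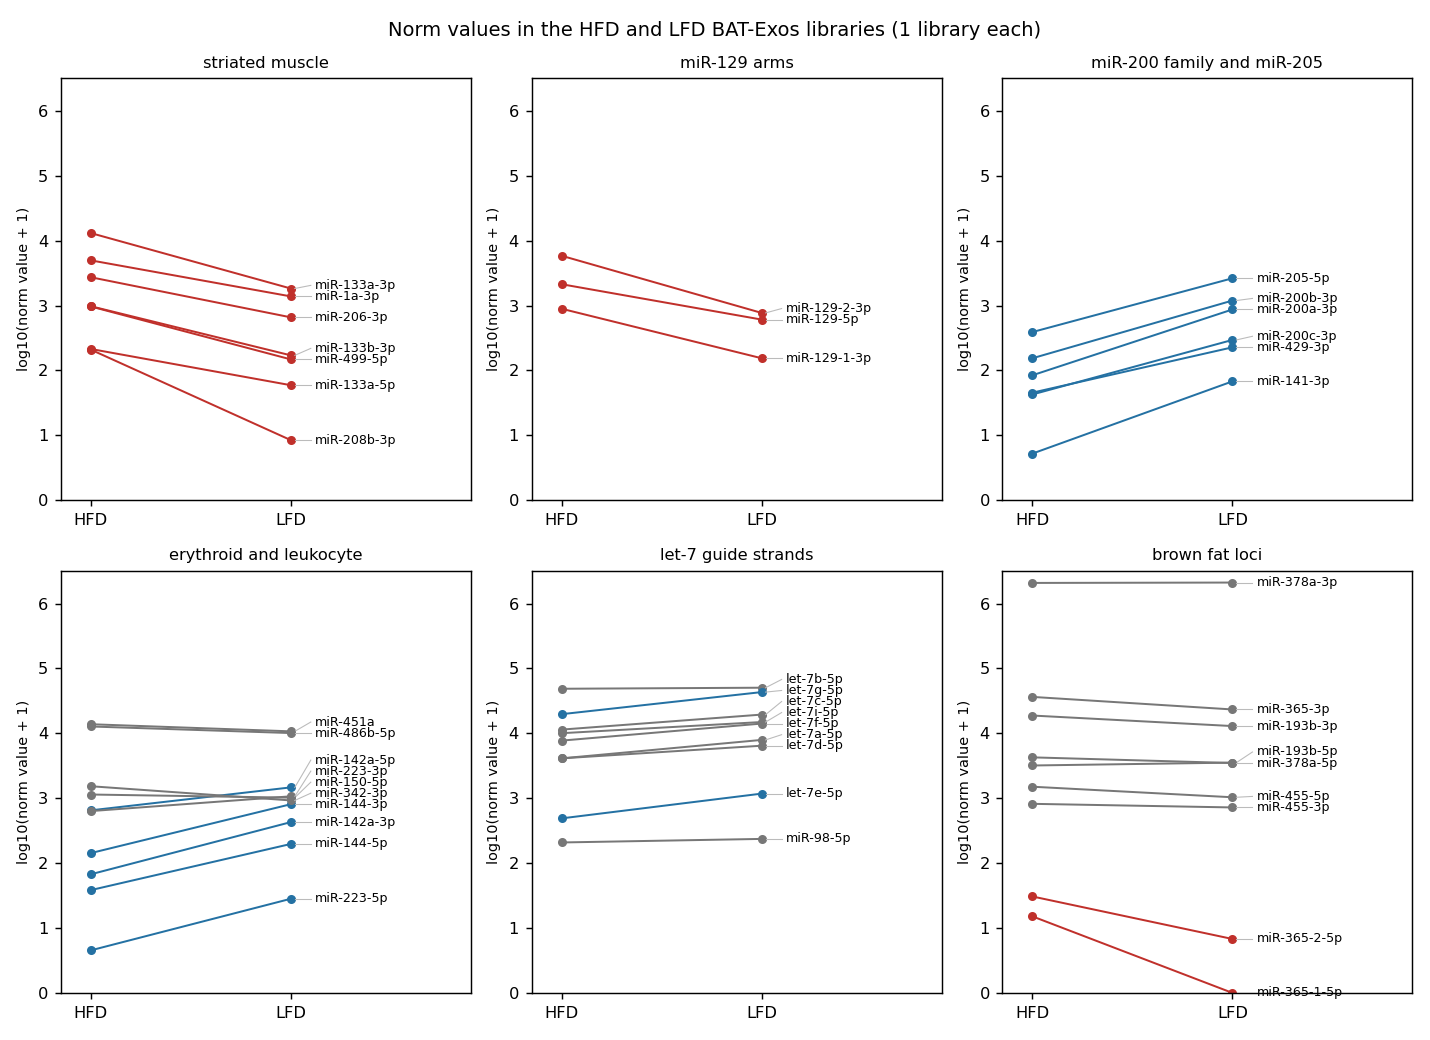
Each line is 1 miRNA, with log10(norm value + 1) in the HFD BAT-Exos library on the left and the LFD BAT-Exos library on the right, in panels for 6 sets. Lines are red at a log2 ratio of 1 or more, blue at -1 or less and grey between. All muscle and miR-129 lines lie higher on HFD and all lines of the miR-200 panel lie lower, while miR-378a-3p and let-7b-5p are nearly level.

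Other miRNAs with higher values on HFD were single members of their families. miR-29b-3p, which targets collagens, had 2555 in the HFD library and 975 in the LFD library (2.62-fold). Its relatives with the same seed, miR-29a-3p and miR-29c-3p, had log2 ratios of 0.37 and 0.57. miR-203b-3p had 1613 and 522 (3.09-fold), miR-350-3p had 1825 and 642 (2.84-fold), and the Hox cluster member miR-615-3p had 567 and 213 (2.66-fold). The other Hox-encoded miRNAs of high level, miR-10a-5p and miR-10b-5p, had log2 ratios of 0.26 and 0.27. Of the 21 higher miRNAs, the 6 that appear with no values elsewhere or only at the edge lay between 2.02-fold (miR-450b-3p) and 2.44-fold (miR-598-3p).

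The miRNAs of brown fat itself were not 2-fold apart at a level of 100. This held for all 7 that reached 100 among the brown fat loci (miR-378a, miR-193b with miR-365, and miR-455). Over all miRNAs at that level, 7.42% were 2-fold higher and 12.4% were 2-fold lower. The sum of the 9 listed members was 2145569 in the HFD library and 2153617 in the LFD library. Of it, miR-378a-3p alone gave 2080467 and 2108530, so the sum says little about the others. Of the 9, 7 lay above 0 and 2 below. miR-193b-3p, which is linked to brown adipocyte differentiation, had 18816 and 12951, and its cluster mate miR-365-3p had 36458 and 23347. miR-455-3p, induced by cold in brown fat, had 819 in the HFD library and 721 in the LFD library, and miR-455-5p had 1504 and 1034. The list's median was 0.54, and its largest ratios belonged to miR-365-1-5p (14.1 and 0) and miR-365-2-5p (29.6 and 5.78), which are low.

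Of 13 described miRNAs known to promote brown or beige adipocytes, only miR-129-5p was 2-fold higher and none was 2-fold lower, with a median of 0.65. All 13 reached a level of 100, at which 7.42% of all miRNAs were 2-fold higher and 12.4% were 2-fold lower. miR-196a-5p, the 14th, lay under a norm value of 10. Among them miR-30c-5p had 90106 in the HFD library and 46516 in the LFD library, and miR-26a-5p had 13184 and 24497, just under 2-fold in opposite directions. Of 11 known to restrain brown adipocytes, only miR-133a-3p was 2-fold higher and none was 2-fold lower, with a median of 0.19. All 11 reached a level of 100, so the same shares of 7.42% and 12.4% stand beside these counts. miR-27b-3p, which represses Prdm16, had 85988 in the HFD library and 79680 in the LFD library, and miR-155-5p had 127 and 249.

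**Figure D3:**
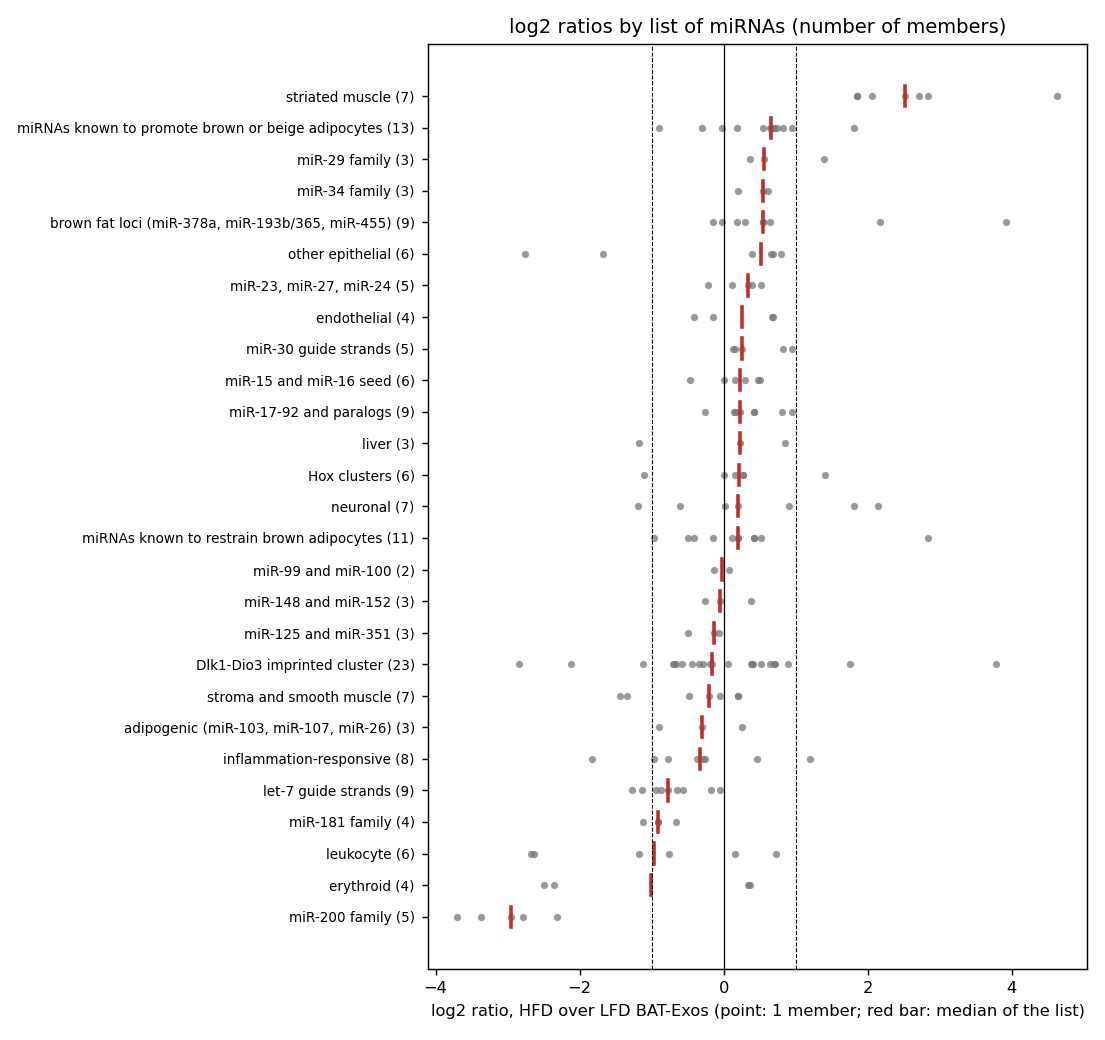
Each row is a list of related miRNAs with its number of members, each point is the log2 ratio of 1 member, HFD over LFD BAT-Exos, and the red bar is the list's median. Dashed lines mark 2-fold. The striated muscle list is at the top with a median of 2.52, the miR-200 family at the bottom with -2.95, and most lists lie within 2-fold of 0.

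The miR-200 family was the list with the lowest ratios. It represses the transcription factors ZEB1 and ZEB2 and marks epithelial cells. All 5 guide strands lay at least 2-fold lower on HFD, 4 of which reached a level of 100. Over all miRNAs, 12.4% were 2-fold lower at that level and 18.2% with low ones included. The family's sum was 327 in HFD BAT-Exos and 2650 in LFD BAT-Exos, 8.11-fold lower. The study had followed miR-200a-3p and miR-200b-3p by qPCR, so the family is no independent choice. By qPCR with replicates, the paper reports both as higher on HFD in vWAT-Exos and as markedly lower on HFD in BAT-Exos. Of the 5 passenger strands, miR-200a-5p and miR-200b-5p lay under 10, and miR-141-5p, miR-200c-5p and miR-429-5p were not matched.

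By member, miR-200a-3p had 83.3 in the HFD library and 869 in the LFD library (10.4-fold lower, interval 8.62 to 12.7), and miR-200b-3p had 153 and 1193 (7.79-fold lower, interval 6.75 to 9.03). miR-200c-3p, from the other locus, had 41.6 and 294 (7.07-fold lower), miR-429-3p had 44.5 and 226 (5.09-fold lower), and miR-141-3p had 4.23 and 66.9. Members of both loci and of both seeds were thus lower, by folds of different size. For miR-141-3p the HFD value is about 6 reads, so its fold of 15.8 has an interval of 6.95 to 44.3.

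Not all epithelial miRNAs went the same way. miR-205-5p, of stratified and glandular epithelium, had 390 in the HFD library and 2631 in the LFD library (6.76-fold lower, interval 6.17 to 7.41), and miR-31-5p had 43.0 and 140 (3.26-fold lower). The cluster of miR-96, miR-182 and miR-183 lay above 0. miR-96-5p had 5090 in the HFD library and 2942 in the LFD library, miR-182-5p had 3417 and 2175, and miR-183-5p had 801 and 611. miR-203-3p of the skin had 5261 and 3266. The list of other epithelial miRNAs had 2 of 6 lower and 0 higher by 2-fold, beside 12.4% lower and 7.42% higher over all miRNAs at a level of 100. Its median was 0.52, and the 7th name, miR-375-3p, lay under 10.

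Markers of blood split within single lists. The neighbours miR-144-3p and miR-451a, both transcribed in red cell precursors, differed most. miR-144-3p had 142 in the HFD library and 808 in the LFD library (5.70-fold lower, interval 4.89 to 6.67) and miR-144-5p had 37.4 and 196 (5.25-fold lower). By contrast, miR-451a had 13822 and 10738, and miR-486b-5p, also of red cells, had 12760 and 10106. The list's median of -1.01 thus lies between separate pairs and describes neither.

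Among leukocyte miRNAs, both arms of miR-142a were lower on HFD. miR-142a-3p had 66.3 in the HFD library and 428 in the LFD library (6.45-fold lower), and miR-142a-5p had 650 and 1469 (2.26-fold lower). miR-223-3p of myeloid cells had 633 and 1070, a log2 ratio of -0.76. The lymphocyte miRNAs miR-150-5p (1140 in the HFD library and 1020 in the LFD library) and miR-342-3p (1530 and 924) were not lower, and the median of the 6 was -0.97. Their sum was 4023 in the HFD library and 4938 in the LFD library.

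Of 8 described miRNAs known to respond to inflammation, 6 reached a level of 100, of which 1 was 2-fold lower and none was 2-fold higher, beside 12.4% and 7.42% over all miRNAs. The median of the 8 was -0.33, and the low miR-212-5p had 12.7 in the HFD library and 4.95 in the LFD library. The lower one was miR-146b-5p, a brake on Toll-like receptor signalling, with 541 in the HFD library and 1930 in the LFD library (3.57-fold lower, interval 3.29 to 3.87). miR-146a-5p had 15455 and 19982, and miR-21a-5p had 72338 and 86674. miR-212-3p lay under 10.

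The let-7 guide strands, which share the seed GAGGUAG and restrain growth, all had lower values on HFD. Their median log2 ratio was -0.77 with 9 of 9 below 0, and 2 of 9 were past 2-fold. Over all 283 miRNAs at a level of 100, 130 were below 0 and 12.4% were 2-fold lower. The entry let-7j is not on this list of 9, and it was also more than 2-fold lower. let-7e-5p had 489 in the HFD library and 1177 in the LFD library (2.41-fold lower, interval 2.20 to 2.64), and let-7g-5p had 19754 and 43231 (2.19-fold lower, interval 2.16 to 2.22). The ratios nearest to 0 were those of let-7b-5p, with 48676 and 50514 (log2 ratio -0.05), and miR-98-5p, with 207 and 235 (log2 ratio -0.18). The strands differ by few letters, as the sequences of let-7e-5p, let-7g-5p and let-7b-5p show, and the listed let-7c-5p also carries a let-7a name, so reads may be split between members. let-7d-5p was the less abundant arm of its hairpin, with 4116 in the HFD library and 6450 in the LFD library, while let-7d-3p had 12290 and 10554.

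The miR-181 family, which shares the seed ACAUUCA and is rich in lymphoid cells, lay on the same side. miR-181a-5p had 2078 in the HFD library and 3923 in the LFD library, miR-181b-5p had 477 and 895, miR-181c-5p had 106 and 230, and miR-181d-5p had 131 and 207. Their median was -0.91, and miR-181c-5p alone passed 2-fold (2.18-fold lower, interval 1.78 to 2.67). Of the 11 seed families with at least 3 members at a level of 100, the miR-200b, miR-181, let-7 and miR-125 seeds had all their members below 0. The seeds of miR-25, miR-30, miR-17, the let-7 passenger strands and miR-29 had all their members above 0. The miR-125 members lay within 2-fold, with log2 ratios of -0.13 for miR-125a-5p, -0.50 for miR-125b-5p and -0.06 for miR-351-5p.

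None of the 4 endothelial miRNAs was 2-fold apart, beside 7.42% higher and 12.4% lower over all miRNAs at a level of 100. Of the 4, 2 lay above 0 and 2 below, with a median of 0.26. Of the arms of miR-126a, which endothelial cells make, miR-126a-3p had 28076 in the HFD library and 17511 in the LFD library and miR-126a-5p had 8949 and 5641. The log2 ratios of miR-221-3p and miR-222-3p were -0.15 and -0.41. On the list of stroma and smooth muscle, 2 of 7 were 2-fold lower and none was 2-fold higher, beside 12.4% lower and 7.42% higher over all miRNAs at a level of 100. The smooth muscle miRNA miR-143-3p had 62409 in the HFD library and 64880 in the LFD library. miR-199a-5p, whose listed sequence also stands under a miR-199b-5p name, had 3059 in the HFD library and 8333 in the LFD library (2.72-fold lower, interval 2.63 to 2.82), and its cluster mate miR-214-5p had 60.0 and 154 (2.56-fold lower). miR-214-3p, the main arm of that hairpin, had 763 and 1068. On the liver list, miR-122-5p, the defining miRNA of hepatocytes, had 262 in the HFD library and 596 in the LFD library (2.27-fold lower), while miR-192-5p had 1634 and 909.

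The imprinted cluster of chromosome 12, which lies between Dlk1 and Dio3 and is read from the maternal chromosome, was not uniform. Its 43 described miRNAs from 33 hairpins lie between positions 109571990 and 109743795 (GRCm38). Of 22 that reached 100, 1 was 2-fold higher and 4 were 2-fold lower, beside 7.42% and 12.4% of all miRNAs at that level. Over all 43, low ones included, 2 were 2-fold higher and 12 were 2-fold lower, beside 11.6% and 18.2%, and the median log2 ratio was -0.34. miR-411-5p had 39.5 in the HFD library and 290 in the LFD library (7.33-fold lower, interval 5.52 to 9.90), its neighbour miR-379-5p had 55.7 and 245 (4.40-fold lower), and miR-329-5p had 40.9 and 138 (3.37-fold lower). Their hairpins lie close together, with hairpins of other miRNAs between those of miR-411 and miR-329. The more abundant arm of the last hairpin, miR-329-3p, had 147 in the HFD library and 181 in the LFD library, within 2-fold. A few kb further on, miR-543-3p had 128 in the HFD library and 37.1 in the LFD library (3.44-fold higher, interval 2.47 to 4.88). The most abundant of the cluster, miR-127-3p, had 2490 and 3942, and its arm miR-127-5p had 87.5 and 191 (2.19-fold lower). The fixed list of 30 names from this cluster, 23 of them described, had a median of -0.16.

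**Figure D4:**
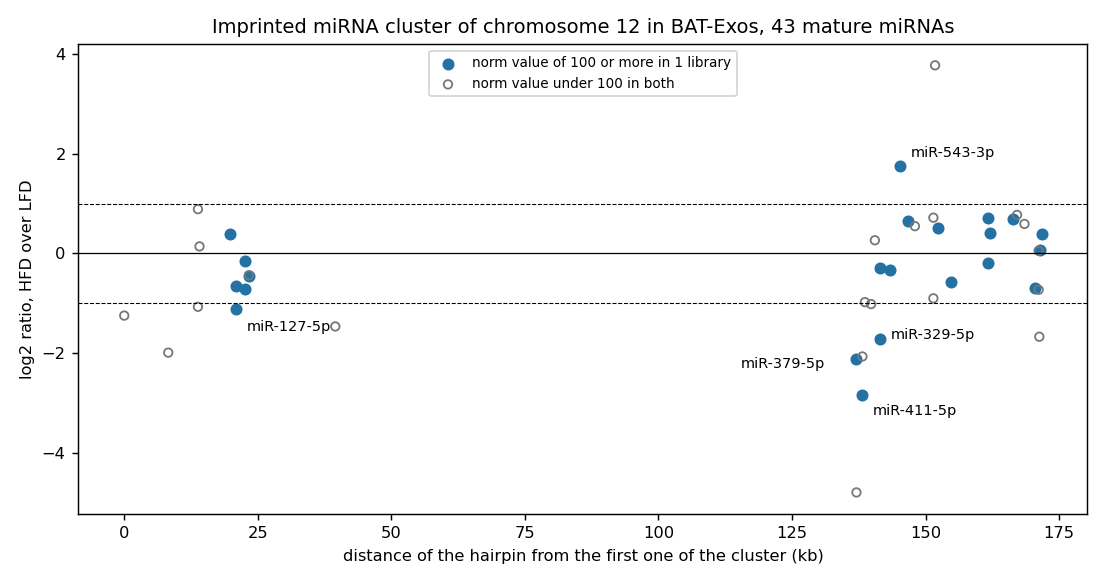
Each point is 1 of the 43 miRNAs of the chromosome 12 cluster, with the distance of its hairpin from the first one in kb on the x axis and its log2 ratio, HFD over LFD BAT-Exos, on the y axis. Filled points reached a norm value of 100 in 1 library, and dashed lines mark 2-fold. The points of miR-379-5p, miR-411-5p and miR-329-5p lie below the lower line within a short stretch that also holds other points, and miR-543-3p lies above the upper one.

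All 6 B1-like entries, a set also put together after the values were seen, were lower on HFD. They carry mouse miRNA names, but their letters match the B1 repeat, of which the genome holds very many copies, so their reads cannot be placed at 1 locus. Their sum was 977 in HFD BAT-Exos and 4522 in LFD BAT-Exos (4.63-fold lower), against 29.6 in HFD and 143 in LFD vWAT-Exos. mir-3470b-p3 had 443 in the HFD library and 2360 in the LFD library (5.33-fold lower), miR-3470b had 189 and 904 (4.79-fold lower), and mir-1954-p3 had 135 and 346 (2.55-fold lower). They make up 6 of the 35 lower entries, which are 12.4% of all miRNAs at a level of 100. The labels state that repeats were removed before counting, and these entries remained listed. Another entry among the lower ones, mir-6240-p5, had 284 in the HFD library and 1747 in the LFD library (6.16-fold lower). The 5 lower entries that belong to none of the sets above or below lay between 2.29-fold lower (miR-15a-3p) and 2.97-fold lower (let-7j).

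Arms of the same hairpin often had different ratios. In some pairs the more abundant arm is also made by another hairpin, so its value does not come from the same precursor alone. For example, miR-29b-3p (log2 ratio 1.39) is paired with both miR-29b-1-5p (-0.43) and miR-29b-2-5p (1.26). Such pairs are counted below with the others. In 113 hairpins with both arms described, 62 pairs lay on the same side of 0, 39 pairs differed by 2-fold or more in their ratios, and the median gap was 0.74 on the log2 scale. Across the pairs, Spearman's rho was 0.38 and Pearson's r 0.49, a description in which both arms share their libraries and many minor arms are low. miR-27a gave the widest gap among pairs whose minor arm reached 100. miR-27a-3p had 62105 in the HFD library and 43257 in the LFD library, whereas miR-27a-5p had 36.7 and 169 (4.61-fold lower, interval 3.39 to 6.38).

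Several let-7 hairpins also parted by arm, which was noticed in the values. The passenger strands with the seed UAUACAA, from let-7a, let-7b, let-7f and miR-98, had 5 of 5 entries above 0 and a median of 0.36, while the guide strands had 9 of 9 below 0. The name let-7a-1-3p is repeated among these entries, and the arm pairs hold only the entry with the higher ratio. The entry left out had a log2 ratio of 0.16 and exceeded let-7a-5p in the sum of both libraries. For let-7a this strand was therefore not the less abundant arm. For example, let-7f-1-3p had 373 in the HFD library and 216 in the LFD library, and let-7f-5p had 7729 and 14148. let-7f-5p is also made by the hairpin of let-7f-2-3p, which had 662 and 513, so its value mixes hairpins. let-7g did not part, with log2 ratios of -1.11 for let-7g-3p and -1.13 for let-7g-5p, and let-7i-3p was also below 0, at -0.16. miR-129 and miR-144 are hairpins in which both arms differed by at least 2-fold in the same direction.

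**Figure D5:**
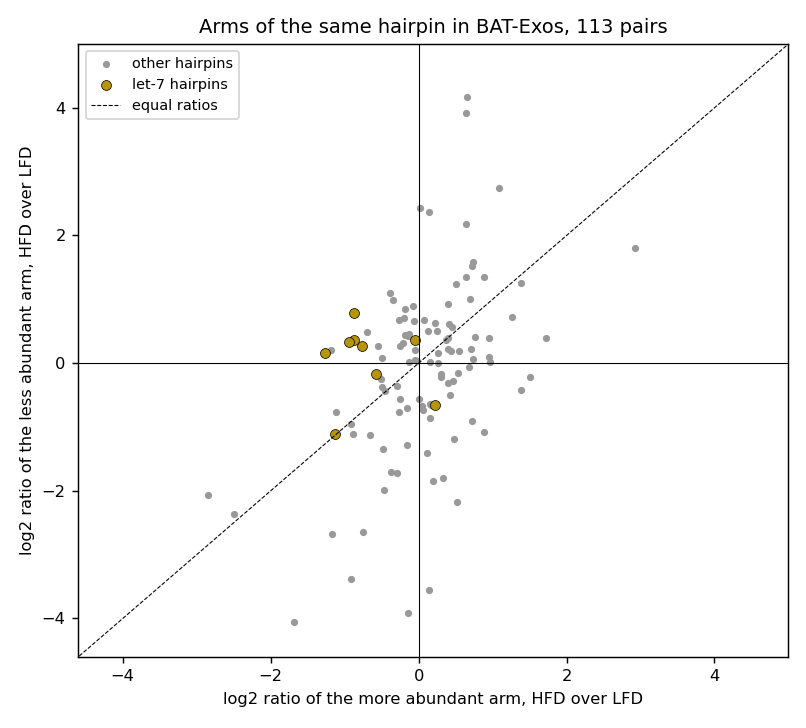
Each point is 1 of 113 hairpins, with the log2 ratio (HFD over LFD BAT-Exos) of its more abundant arm on the x axis and of its less abundant arm on the y axis. The dashed line marks equal ratios. Points scatter widely around it, and let-7 hairpins (yellow) lie mostly left of 0 on the x axis and above 0 on the y axis. The pair of miR-379, at -2.12 and -4.80, lies below the range drawn.

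Few miRNAs were present on 1 diet alone. At the study's norm value cutoff of 10, 422 miRNAs were present in the HFD library and 432 in the LFD library, of which 398 were shared. Of the 24 above 10 in the HFD library alone, the highest was miR-208b-3p and the median value was 15.7, and 6 were listed at 0 in the LFD library. Of the 34 above 10 in the LFD library alone, the median value was 19.0, and 12 were listed at 0 in the HFD library. The highest of these 12 was miR-1195, with 0 in the HFD library and 45.4 in the LFD library, which is at least 21.4-fold lower when 3 reads are taken as the floor of the HFD library. miR-379-3p, the passenger strand of miR-379, had 0 and 26.8. On the HFD side, miR-491-5p had 18.3 in the HFD library and 0 in the LFD library, at least 7.41-fold higher by the same rule. Both bounds leave out the counting error of the value above 0. miR-182-3p had 16.9 in the HFD library and 0 in the LFD library.

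The differences of BAT-Exos were set beside those of vWAT-Exos, whose libraries are shallower and separate. In vWAT-Exos, 16 of 283 miRNAs at a level of 100 were 2-fold higher on HFD (5.65%) and 13 were 2-fold lower (4.59%). Of the 21 miRNAs that were higher in BAT-Exos, 10 reached 100 in vWAT-Exos and none of them was 2-fold apart there. miR-133a-3p had 392 in HFD and 490 in LFD vWAT-Exos, and miR-206-3p had 175 and 169. Of the 35 that were lower in BAT-Exos, 28 reached 100 in vWAT-Exos, and 24 of these were within 2-fold there. The exceptions were mir-3535-p3, which was lower in both depots, and 3 members of the miR-200 family (miR-200c-3p, miR-200a-3p and miR-200b-3p), which were higher on HFD in vWAT-Exos. There miR-200a-3p had 1936 on HFD and 805 on LFD, and miR-200c-3p had 716 on HFD and 94.0 on LFD. The 6 B1-like entries, which were lower in BAT-Exos, did not reach 100 in vWAT-Exos and are outside these counts. Their sum in vWAT-Exos was also lower on HFD, with 29.6 on HFD and 143 on LFD. With 1 library per group, the difference between the depots was not tested.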

How the data were processed

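Small RNA of exosomes was sequenced by the authors in 4 libraries, and the labels name single-end reads of an Illumina HiSeq 2500, the program ACGT101-miR, and the human build GRCh38, although the samples are from mice. The deposited table of the authors holds 1 normalized signal for each entry and library, called the norm value. The way of normalization is not given in the sources. The program removed junk reads, common RNA families and repeats, per the labels.

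The norm values of HFD and LFD BAT-Exos were compared with Python 3.11.15, numpy 2.4.6, pandas 2.3.3 and scipy 1.17.1, and figures were drawn with matplotlib 3.10.9. Each mouse-named sequence was taken once. Log2 ratios used a pseudocount of 1. The value of 1 read was taken from the read numbers that predicted entries carry in their names, for which 100 of 112 entries in the HFD library and 127 of 146 in the LFD library gave the same value. The study's p threshold was left out, since 1 library per group gives no p. Names of 380 of the 456 miRNAs were matched to RefSeq, and host genes come from GENCODE on GRCm38. Counts by fold and intervals were tested on simulated data that held counting error only. This checks the computation and says nothing of the variation between libraries.

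Named miRNAs are the 15 largest ratios in each direction at a level of 100, the 10 most abundant per library, the 5 that the study followed by qPCR, up to 6 most abundant members of each of 27 lists, and the 5 highest listed at 0 in the other library. Others were named after their values were seen. The miRNAs, lists and rules were chosen with earlier results of these data known. Alternatives changed the level, the fold, the pseudocount, the scaling, the depth and the entries counted.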

Additional observations from a re-analysis of the deposited data

Results flagged for a closer look

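The ratios of 3 miRNAs of the miR-200 family ran in opposite directions in the depots, and this difference was not tested here. For miR-200a-3p and miR-200b-3p, the paper reports the same directions in each depot by replicated qPCR. Taking the log2 ratio of HFD over LFD in BAT-Exos minus the one in vWAT-Exos, miR-200c-3p came to -5.71, miR-200a-3p to -4.63 and miR-200b-3p to -4.00.

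Predicted small RNAs, which the comparison leaves out, made up 0.406% of the norm total of HFD BAT-Exos and 0.508% of that of LFD BAT-Exos. Of 115 predicted entries at a norm value of 10 or more, 24 reached 100, and 5 of these were 2-fold higher on HFD and 5 were 2-fold lower, beside 7.42% and 12.4% of the mouse-named miRNAs at that level.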

How the results depend on the processing

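No paired analysis was possible because each group has 1 library. For the same reason no library could be left out, and counting intervals are the only error given. Against 21 higher and 35 lower miRNAs, the numbers were 14 and 19 when 100 was required in both libraries, 53 and 83 at a level of 10, 14 and 17 at a level of 500, 54 and 61 at a fold of 1.5, and 7 and 16 at a fold of 4. Scaling to library totals gave 20 and 36, median of ratios scaling gave 19 and 39, and totals without the most abundant miRNA gave 19 and 37. Without the B1-like entries there were 21 and 29, and without the striated muscle list 14 and 35, both chosen after seeing the data. miRNAs alone in 1 library fell to 6 on HFD and 12 on LFD when 0 was required in the other. The log2 shift was -0.05 for library totals, -0.10 for median of ratios and -0.08 without the most abundant miRNA. A pseudocount does not change the sign of a ratio. A value past 2-fold therefore could not reverse under these settings, and none did. The erythroid median was -0.89 with a pseudocount of 10. The leukocyte median passed 2-fold when scaled to totals (-1.01), by median of ratios (-1.06) and without the most abundant miRNA (-1.05), and that of the miR-181 family passed by median of ratios (-1.01). Values near 10 rest on about 14.2 reads in the HFD library and 12.1 in the LFD library.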
